A study of Mus musculus with 48 samples.

Results

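Somatostatin (SST) interneurons of hippocampal field CA1 were compared with pyramidal cells of dorsal CA1 in RNA sequencing libraries made from hand-sorted mouse neurons. Both groups held 3 libraries, so 6 of the 48 libraries of the series entered the comparison, and every Ensembl gene of the count table was a candidate: 37620 genes, of which 13429 had enough reads to be tested. Per the labels, fluorescent neurons were picked by hand from microdissected slices, their total RNA was isolated with PicoPure columns, ERCC spike-in RNA was added, and cDNA amplified with Ovation RNA-seq v2 was sequenced on an Illumina HiSeq 2500. The SST group is labelled as interneurons from CA1, and the dorsal group as pyramidal cells from the dorsal end of CA1. The genotype, age and sex of the animals, the driver and the fluorescent label of each line, and the number of animals behind a library were not given in the sources used here. The 3 libraries of each population are described as biological replicates. The p-values below set each difference against the spread between libraries, pooled over the groups compared and moderated across genes. They do not measure the spread of the SST libraries alone, which varied more than the dorsal libraries. Parvalbumin (PV) interneurons, also 3 libraries from CA1, served as a second interneuron group for showing which differences from pyramidal cells set SST cells apart.

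Pyramidal cells are the excitatory principal neurons of CA1 and release glutamate onto distant targets. SST interneurons release GABA, and many of them have their somata in stratum oriens and contact the distal dendrites of pyramidal cells, whereas many PV cells contact the soma and the axon initial segment. SST and PV cells both arise from the medial ganglionic eminence under the control of transcription factors of the Dlx, Lhx and Sox families, while pyramidal cells arise from the dorsal telencephalon.

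The proximal promoters of 4 genes that separate the groups are shown here for orientation, each as the 250 bases before the annotated start, from RefSeq on GRCm38.p6. Sst encodes the peptide after which the interneurons are named, Cort encodes the related peptide cortistatin, Gad2 encodes a GABA-synthesising enzyme, and Nrgn encodes neurogranin, a calmodulin-binding protein of pyramidal cell dendrites. Capitals mark a match to 1 of 3 motifs searched on both strands: the cAMP response element TGACGTCA, the homeodomain core TAATTA and the NeuroD E-box CAGATG, which reads CATCTG on the other strand.
Sst: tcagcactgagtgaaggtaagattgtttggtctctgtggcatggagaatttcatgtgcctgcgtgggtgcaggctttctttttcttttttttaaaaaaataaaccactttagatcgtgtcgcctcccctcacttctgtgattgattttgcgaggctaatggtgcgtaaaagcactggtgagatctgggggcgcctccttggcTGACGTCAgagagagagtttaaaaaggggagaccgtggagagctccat
Cort: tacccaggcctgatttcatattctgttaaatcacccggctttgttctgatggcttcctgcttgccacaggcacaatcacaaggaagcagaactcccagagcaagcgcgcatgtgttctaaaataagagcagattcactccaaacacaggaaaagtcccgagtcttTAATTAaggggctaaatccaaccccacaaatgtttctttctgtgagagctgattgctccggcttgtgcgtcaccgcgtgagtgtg
Gad2: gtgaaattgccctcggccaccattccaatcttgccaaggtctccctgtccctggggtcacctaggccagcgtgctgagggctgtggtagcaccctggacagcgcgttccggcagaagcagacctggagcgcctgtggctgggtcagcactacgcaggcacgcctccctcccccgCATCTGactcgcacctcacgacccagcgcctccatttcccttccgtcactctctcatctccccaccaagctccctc
Nrgn: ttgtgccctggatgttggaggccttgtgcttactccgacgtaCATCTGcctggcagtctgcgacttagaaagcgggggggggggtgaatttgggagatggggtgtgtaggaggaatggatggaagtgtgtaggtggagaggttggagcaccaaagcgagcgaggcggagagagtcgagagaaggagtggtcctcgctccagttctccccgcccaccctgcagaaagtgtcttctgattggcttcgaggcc
The windows lie at chr16:23890845-23891094 on the minus strand for Sst, chr4:149126764-149127013 on the minus strand for Cort, chr2:22622077-22622326 on the plus strand for Gad2 and chr9:37552746-37552995 on the minus strand for Nrgn. The matches begin at -48 in Sst, -85 in Cort, -76 in Gad2 and -208 in Nrgn, counted from the start. These 4 were picked after the matches were seen, out of 16 genes examined, of which 15 had a window in the table and 4 held any of the motifs. Over 27025 promoter windows of the same length, 1.62% held the cAMP response element, 4.9% the homeodomain core and 14.5% the E-box. Among the named genes with the largest differences, described below, 12 SST-enriched and 12 dorsal CA1-enriched genes had a window. The cAMP response element was in 1 SST-enriched (Sst) and 1 dorsal CA1-enriched window (Dnah6). For the homeodomain core the counts were 0 and 1 (Robo3), and for the E-box 1 (Sox6) and 0. Counts this small cannot show whether a motif separates the groups.

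Gene reads totalled 15.69 to 21.68 M (megareads) in the SST libraries and 22.12 to 30.08 M in the dorsal libraries. Reads outside annotated genes were 22.5% to 26.8% of the reads tallied in or outside genes in SST and 26.9% to 32.9% in dorsal libraries, and mitochondrial genome genes took 14.6% to 19.9% of gene reads in SST against 9.41% to 9.73% in dorsal libraries. A mean of at least 10 CPM (gene reads scaled to library size) was reached by 8201 genes in SST cells and 7737 in dorsal CA1. The dorsal libraries correlated with each other at r = 0.9861 to 0.9903 across genes on the log2 scale. SST libraries 1 and 2 correlated at 0.9818, and library 3 correlated with them at only 0.9569 and 0.95, so SST library 3 stands apart. Where leaving it out changed the call of a named gene or moved a count by over 1.5 times, the value without it is given. In bulk samples, fewer cells of a type and less RNA per cell cannot be told apart.

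With edgeR's quasi-likelihood test, 4067 of 13429 genes (30.3%) differed between SST and dorsal CA1 cells at an adjusted p under 0.05. Of these, 2202 (16.4% of tested genes) were higher in SST cells and 1865 (13.9%) were higher in dorsal CA1, and the median log2 fold change over all tested genes was 0.06. The counts by gene list below are to be set beside these 2 shares. The difference was at least 3-fold for 2486 genes (18.5%), 1465 of them higher in SST and 1021 higher in dorsal CA1, and at least 10-fold for 888 and 428 genes. The 3 SST values and the 3 dorsal values did not overlap for 6443 genes (48%). The split was lopsided among genes close to silent in the other group: 336 genes averaged at least 10 CPM in SST and under 1 CPM in dorsal cells, against 53 genes in the opposite direction. In 80 genes of at least 10 CPM in SST no dorsal library held a read, and the reverse held for 2 genes, Dnah6 and Sebox. A gene without a read in 1 group entered the test through the other group alone and could be called only in that direction. The count of differing genes depended on SST library 3, since 6221 genes were called without it and 3435 and 3459 without libraries 1 and 2, and on the size of the dorsal group, since leaving out a dorsal library gave 2580 to 2703 calls.

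**Figure D1:**
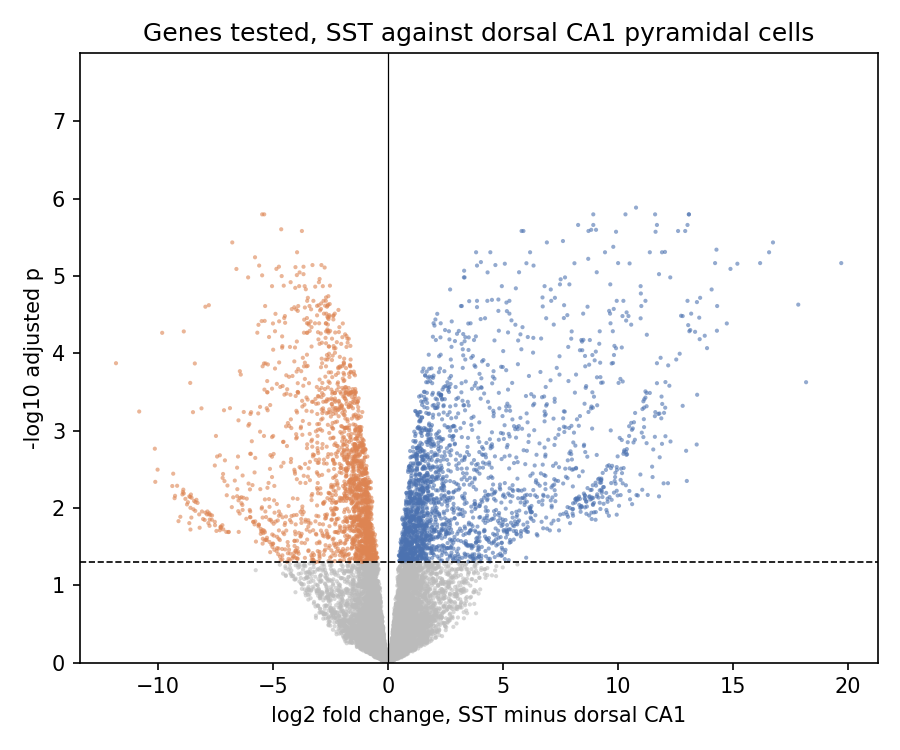
Each point is a tested gene, with the log2 fold change of SST minus dorsal CA1 on the horizontal axis and −log10 of the adjusted p on the vertical axis; the dashed line marks an adjusted p of 0.05. Blue points are the 2202 genes higher in SST, orange points the 1865 genes higher in dorsal CA1, and grey points were not called.

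Genes of GABA synthesis and transport are described first. Gad1, which encodes the GAD67 form of glutamate decarboxylase, was at 494, 569 and 721 CPM in the SST libraries and had no read in any dorsal library, at least 5000-fold higher (adjusted p 3.67e-06). Gad2, which encodes GAD65, was at 4910, 5270 and 3990 CPM in SST and 0, 0.0674 and 1.41 CPM in dorsal libraries (10500-fold, adjusted p 5.26e-05). Every SST library was far above every dorsal library for both enzymes. The vesicular GABA transporter Slc32a1 stood at 341, 339 and 524 CPM against no dorsal read (at least 3380-fold, adjusted p 6.79e-06). Gad1 and Slc32a1, without a dorsal read, could be called only toward SST. The GABA transaminase gene Abat was 20.2-fold higher in SST and Aldh5a1, which completes GABA breakdown, 3.02-fold. In all, 6 of 7 tested members of this list of 8 were higher in SST and none was higher in dorsal CA1, with a median log2 fold change of 9.66 against 0.06 over all tested genes. The exception was the transporter gene Slc6a11, at 8.84, 5.97 and 21.3 CPM in SST and 26.1 to 29 CPM in dorsal libraries (log2 fold change -1.17, adjusted p 0.0988), which was called higher in dorsal CA1 once SST library 3 was left out (-1.89).

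The balance of the 2 decarboxylases differed between interneuron groups. Gad1 was lower in SST than in PV cells, which had 1060, 1110 and 1210 CPM (log2 fold change -0.91, adjusted p 0.0273), and Gad2 was higher in SST than in PV cells, which had 2570 to 2960 CPM (log2 fold change 0.8, adjusted p 0.0252). Per length, Gad2 made up 73.6% to 82.7% of summed Gad1 and Gad2 FPKM (fragments scaled to gene length and library depth) in SST libraries and 52.5% to 57% in PV libraries. In the fit of SST against PV libraries as a whole, 478 of 13633 genes (3.51%) were called, 257 (1.89%) higher in SST and 221 (1.62%) higher in PV. That fit shares its SST libraries with the comparison to dorsal CA1, so its values are given beside the others gene by gene.

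**Figure D2:**
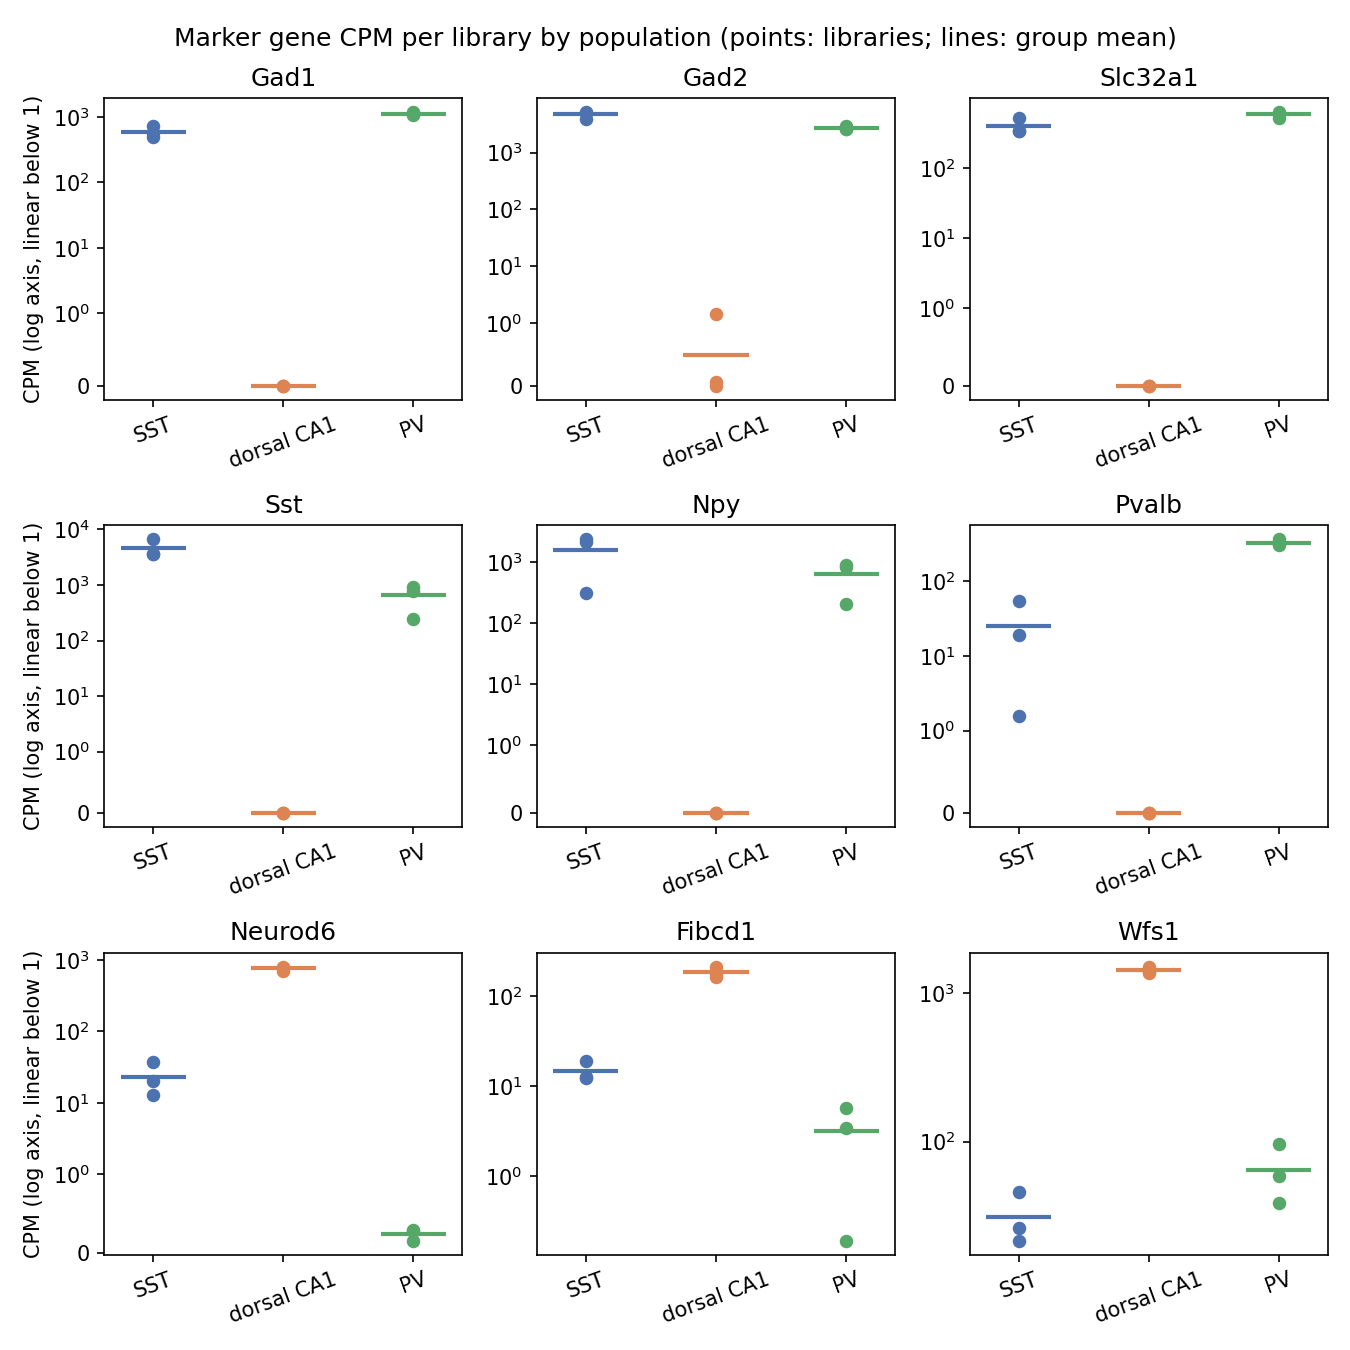
Points are single libraries and horizontal lines group means, in CPM on a log axis (linear below 1 CPM), for SST, dorsal CA1 and PV cells. Gad1, Gad2 and Slc32a1 separate both interneuron groups from dorsal CA1, Sst is higher in SST than in PV cells, Npy overlaps between those groups, Pvalb is higher in PV cells, and Neurod6, Fibcd1 and Wfs1 are higher in dorsal CA1.

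The Sst transcript itself was at 3680, 3590 and 6680 CPM in SST libraries, with no read in the dorsal libraries, at least 39100-fold higher (adjusted p 6.79e-06). It was also present in PV libraries, at 920, 795 and 240 CPM, and SST cells were higher than PV cells by 2.84 on the log2 scale (adjusted p 0.00657). Sst averaged 8830 ± 3470 FPKM (SD, n = 3) in SST cells, above Npy at 3240 ± 2270 and Gad2 at 944 ± 124 FPKM. Of 14 SST interneuron markers, 13 were tested and 12 were higher in SST, with none higher in dorsal CA1. The median log2 fold change was 13.0, or 9.09 with genes lacking dorsal reads set at their lower bound, against 0.06 over all tested genes. Of the 13 tested markers, 6 had no dorsal read and could be called only toward SST.

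Reln, which encodes the extracellular signalling protein reelin, was at 1470, 1390 and 2200 CPM in SST and under 0.27 CPM in every dorsal library (8730-fold, adjusted p 1.59e-06), and it exceeded PV cells, at 146, 51.5 and 22.8 CPM, by 4.52 on the log2 scale (adjusted p 0.00268). Crhbp, the binding protein of corticotropin-releasing hormone, was at 1430, 1760 and 624 CPM against no dorsal read (at least 10700-fold, adjusted p 2.34e-05). Nxph1, a ligand of neurexins, was at 436, 469 and 673 CPM against none (at least 4420-fold, adjusted p 4.92e-06), with no called difference from PV cells at 440 to 615 CPM. Elfn1, a postsynaptic protein that sets release properties of the excitatory inputs to SST cells, was at 316, 470 and 603 CPM against 0.101 to 0.992 CPM in dorsal cells (986-fold, adjusted p 2.09e-05). It was also higher in SST than in PV cells, which had 66.5 to 118 CPM (log2 fold change 2.45, adjusted p 0.00193). Thus Reln and Elfn1 separated SST cells from both other groups, whereas Nxph1 and Crhbp were called only in the comparison with dorsal CA1; the difference between those 2 contrasts was not tested.

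Neuropeptide Y (Npy), a peptide of many SST cells, was at 2380, 2130 and 310 CPM in SST and had no dorsal read (at least 13500-fold, adjusted p 0.000236). PV libraries held 839, 905 and 205 CPM of Npy, which overlapped the SST values and was not called (log2 fold change 1.31, adjusted p 0.386). SST library 3 was the low one, and the call for Npy was lost at an adjusted p of 0.0598 when all genes with at least 1 read were tested. Among 18 neuropeptide genes 12 were tested, with 7 higher in SST and 2 higher in dorsal CA1. The median log2 fold change was 6.79, or 5.83 with genes lacking dorsal reads at their bound. There were 5 such genes among the 12, and they could be called only toward SST. Pnoc, the precursor of nociceptin, was at 45, 102 and 47.6 CPM against no dorsal read (at least 545-fold, adjusted p 6.55e-05). Cort, whose promoter is shown above, was at 22.8, 14.8 and 3 CPM against 0 to 0.198 CPM (106-fold, adjusted p 0.00275), and its values in PV cells were 37.7 to 105 CPM. Pdyn, the dynorphin precursor, was low at 4.13 to 8.67 CPM but 115-fold above dorsal CA1 (adjusted p 0.00204) and also above PV cells (log2 fold change 7.14, adjusted p 0.00972). Cck, the cholecystokinin gene, ran the other way, at 42.2, 19 and 35.1 CPM in SST and 1070, 1100 and 1090 CPM in dorsal CA1 (33-fold higher in dorsal cells, adjusted p 1.35e-05). Bdnf, the brain-derived neurotrophic factor, was also higher in dorsal CA1, at 92.6 to 111 CPM against 2.29 to 15.4 CPM (14.4-fold, adjusted p 0.00296). Vip had no read in any library of the 3 groups.

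Of the 15 named genes with the largest difference toward SST, which needed at least 10 CPM and groups that did not overlap, 14 had no dorsal read. Besides the genes above they included Igf1, insulin-like growth factor 1, at 164, 196 and 248 CPM (at least 1700-fold, adjusted p 6.92e-06). Igf1 was close to specific for SST cells across the series: PV libraries held 3.27, 18.7 and 5.09 CPM (log2 fold change 4.5 over PV, adjusted p 0.00276), and the excitatory population with the highest mean, deep CA1, held 11.0 ± 3.58 CPM (SD, n = 3). Lypd6b, a relative of the Ly6 proteins that bind nicotinic receptors, was at 141, 145 and 206 CPM (at least 1380-fold, adjusted p 8.07e-06) and also exceeded PV cells by 2.11 on the log2 scale (adjusted p 0.00167). Hapln1, a link protein of the hyaluronan matrix, was at 72.2, 116 and 91 CPM (at least 782-fold, adjusted p 1.49e-05). Also in this set were 2 genes known as targets of interferon. Oasl2 was at 201, 370 and 516 CPM with 1 dorsal read in all, a ratio of 28300 (95% exact binomial interval 5080 to 1120000), and Ifit3b was at 49, 134 and 59.5 CPM with no dorsal read (at least 681-fold).

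Transcription factors of the interneuron lineage formed the other large block. Of 21 listed, 19 were tested, 16 were higher in SST and only Zeb2 was higher in dorsal CA1. The median log2 fold change was 11.64, or 7.61 with genes lacking dorsal reads at their bound. Of the 19, 11 had no dorsal read and could be called only toward SST, so the count is no test of the list. Lhx6, the LIM homeobox factor that specifies cells of the medial ganglionic eminence, was at 101, 110 and 99.3 CPM in SST and had no dorsal read (at least 871-fold, adjusted p 6.79e-06). Sox6, which acts after Lhx6, was at 79, 75.2 and 174 CPM (at least 920-fold) and Maf at 74.3, 106 and 151 CPM (at least 927-fold), both without a dorsal read. Lhx6, Sox6 and Maf were not called between SST and PV cells, with log2 fold changes of -0.18, 0.29 and 0.24. The Dlx genes, which establish GABAergic fate, were higher in SST: Dlx1 was at 119, 143 and 156 CPM with 3 dorsal reads, a ratio of 3600 (95% exact binomial interval 1230 to 17400), and Dlx2, Dlx5 and Dlx6 had no dorsal read. Npas3 (at least 312-fold) and Sp9 (at least 300-fold) were also higher in SST, and Satb1, a chromatin organiser of SST cells, was at 586 to 1050 CPM against 105 to 126 CPM (6.64-fold, adjusted p 0.00012). Npas1, a bHLH-PAS factor, stood out against PV cells as well, at 25.1, 36.3 and 41.9 CPM in SST and under 0.08 CPM in PV libraries (log2 fold change 9.24, adjusted p 0.000206). Nr2f2, the COUP-TFII gene, was 50.2-fold above dorsal CA1 (adjusted p 0.000138) and 4.3 on the log2 scale above PV cells (adjusted p 0.0186). Zeb2 was at 379, 418 and 726 CPM in SST and 1680 to 1710 CPM in dorsal CA1 (3.24-fold, adjusted p 0.0014), and Nr2f1 did not differ by the test (log2 fold change 0.5, adjusted p 0.4). Vip and Sp8, which mark other interneuron classes, had no reads in either group.

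Pyramidal transcription factors moved in the opposite direction as a list: of 21, 19 were tested, 17 were higher in dorsal CA1 and 1, Mef2c, was higher in SST, with a median log2 fold change of -4.16 (-4.0 with 1 gene at its bound). Neurod6, a bHLH factor of excitatory neurons, was at 785, 709 and 807 CPM in dorsal CA1 and 20.3, 12.7 and 36.8 CPM in SST (32.1-fold, adjusted p 4.1e-05). Bcl11b, which encodes CTIP2, was at 433 to 484 CPM against 4.87 to 15.3 CPM (41.3-fold, adjusted p 3.8e-05), and Zbtb20, a determinant of CA1 identity, at 1950 to 2190 CPM against 80.2 to 235 CPM (13.8-fold, adjusted p 0.00017). Nuclear factor I genes were higher in dorsal CA1, Nfix 27-fold, Nfib 42.3-fold and Nfia 16-fold. Neurod2 (21.5-fold), Zbtb18 (24.3-fold), Tbr1 (31.6-fold) and Foxp1 (14.4-fold) followed the same order, and Emx1 had no SST read (at least 15.9-fold). Mef2c was at 104 to 138 CPM in SST and 34 to 53.5 CPM in dorsal CA1 (2.81-fold, adjusted p 0.00178), and higher in PV than in SST cells (745 to 1320 CPM, log2 fold change -2.93, adjusted p 0.000298). Without SST library 1 the list counted 2 higher in SST and 16 higher in dorsal CA1.

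Slc17a7, the vesicular glutamate transporter VGLUT1, was at 551, 564 and 496 CPM in dorsal CA1 and 7.8, 5.32 and 22.6 CPM in SST (43.9-fold, adjusted p 0.000147). Nrgn, shown above, was at 461, 450 and 389 CPM against 16, 9.22 and 5.9 CPM (40.7-fold, adjusted p 2.44e-05), and Arpp21, a cAMP-regulated phosphoprotein, was 62.4-fold higher. Of 12 glutamatergic genes, all tested, 8 were higher in dorsal CA1, 1 in SST and 3 were not called (median log2 fold change -1.91). All 7 tested CA1 markers of 8 listed were higher in dorsal CA1 (median -3.62). Wfs1, an endoplasmic reticulum protein that marks CA1, was at 1380, 1510 and 1390 CPM against 45.7, 26.1 and 21.4 CPM (44.8-fold, adjusted p 9.78e-06), and Fibcd1 was at 179, 213 and 162 CPM against 19.1, 12.3 and 12.5 CPM (12.3-fold, adjusted p 2.55e-05). Transcripts of pyramidal cells were above 0 in SST libraries, and no 1 library was highest throughout. As a share of the dorsal mean, the SST libraries held 2.65%, 1.65% and 4.8% of Neurod6 and 1.45%, 0.991% and 4.21% of Slc17a7, highest in library 3. They held 3.21%, 1.83% and 1.5% of Wfs1 and 3.7%, 2.13% and 1.36% of Nrgn, lowest in library 3. The shares were far larger for Mpped1, at 55%, 48.2% and 66.9%, and for Slc30a3, the vesicular zinc transporter, at 97.8%, 148% and 108%. PV libraries held 0.157 to 0.295 CPM of Neurod6. The part of pyramidal RNA in the SST values of genes that are higher in dorsal CA1 was not tested. Man1a, a mannosidase used as a CA1 marker, was at 135, 123 and 221 CPM in SST, 319 to 411 CPM in dorsal CA1 (2.22-fold, adjusted p 0.00853) and 0.439 to 0.47 CPM in PV cells.

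Among the 15 named genes with the largest difference toward dorsal CA1, Dnah6, a dynein heavy chain, was at 22.5, 22 and 16.5 CPM (at least 135-fold, adjusted p 0.000134) and the homeobox gene Sebox at 11, 8.52 and 10.7 CPM (at least 67.2-fold, adjusted p 0.000565), both without an SST read. Rgs14, a regulator of G protein signalling known for limiting plasticity in CA2, was at 33.4, 25.8 and 21.9 CPM in dorsal CA1 against 3 SST reads in all, a ratio of 546 (95% exact binomial interval 187 to 2650). Robo3, a guidance receptor, had a ratio of 382 (131 to 1860) and Ror1, a Wnt receptor, of 315 (108 to 1530). Cd34, a sialomucin, was at 67.1, 78.5 and 80 CPM against 0.541 to 0.734 CPM (110-fold, adjusted p 3.67e-06). Of 9 endothelial and mural markers, 2 were tested and 1, Rgs5, was higher in dorsal CA1, while Pecam1 was at 0 in both groups. The part of endothelial RNA in the Cd34 values was not tested. Nr4a2, an orphan nuclear receptor, was at 149, 109 and 179 CPM against 1.01 to 2.03 CPM (96.9-fold, adjusted p 8.09e-06). Ankrd63 (247-fold), the nucleosome-binding Hmgn5 (223-fold), Lamp5 (180-fold), the semaphorin receptor Plxnd1 (138-fold), Glt8d2 (118-fold), the thyroid hormone-binding Crym (87.6-fold) and Nbl1 (85.3-fold) completed the set, together with Scn4b, described with the sodium channels. Across the 16 populations, the mean was highest in dorsal CA1 for Dnah6 and Lamp5, in distal CA1 for Sebox and Rgs14, in dorsal dentate gyrus for Robo3 and in deep CA1 for Nr4a2.

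The genes of both directions were then placed among all 16 populations. Of 999 genes at least 3-fold higher in SST with at least 10 CPM, 513 had their highest mean in SST cells and 263 in PV cells, followed by dorsal dentate gyrus with 57. Of 786 genes at least 3-fold higher in dorsal CA1, 53 had their highest mean in dorsal CA1 itself, 138 in postsubiculum-projecting CA1 cells and 124 in dorsal dentate gyrus, while 1 peaked in PV cells. By the choice of the genes, none of the 786 could peak in SST cells and none of the 999 in dorsal CA1. The 999 were also chosen for high SST values, so their share peaking in SST cells is no test of specificity. The counts describe where means were highest, and the order of neighbouring means was not tested.

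Markers of other cells that the dissection could hold were checked in the same way. Oligodendrocyte markers summed to 154, 844 and 60.6 CPM in the SST libraries and 14.9 to 35.3 CPM in dorsal libraries, and 6 of 6 tested members of 10 were higher in SST. The excess was largest in SST library 2, and leaving out dorsal library 1 or 2 left 3 calls. Microglial markers summed to 55.6, 42.2 and 137 CPM in SST and 0.476 to 1.23 CPM in dorsal libraries, with 5 of 6 tested members of 9 higher in SST and 3 without SST library 1. C1qc, a complement gene, was at 9.99, 6.33 and 34.2 CPM against no dorsal read. Among the tested members, 1 oligodendrocyte and 3 microglial genes had no dorsal read, so they could be called only toward SST. Over all tested genes 16.4% were higher in SST. Astrocyte markers summed to 81.1 to 146 CPM in SST and 282 to 376 CPM in dorsal CA1, mostly Slc1a2, with 2 of 3 tested members of 8 higher in SST and 1 higher in dorsal CA1. Without SST library 3 those counts were 4 and 1, and without any 1 dorsal library they were 1 and 1. Endothelial markers summed to 1.38 to 5.44 CPM in SST and 3.77 to 9.47 CPM in dorsal libraries, with Pecam1 at 0. Of 2 tested endothelial and mural markers, 1 was higher in dorsal CA1 and 0 in SST, or 1 and 1 without SST library 3. Over all tested genes 13.9% were higher in dorsal CA1. Choroid plexus markers summed to 4.03 to 7.43 CPM in SST and 36.6 to 72.5 CPM in dorsal libraries, the latter mostly Kl, with Folr1 at 0. The progenitor marker Cspg4 was at 0 in both groups. The part of glial RNA in the SST-enriched genes was not tested.

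The SST libraries varied more among themselves than the dorsal libraries. Over 1736 SST-enriched genes the median ratio of the highest to the lowest library was 1.65, and 242 genes spread over 3-fold, while over 1630 dorsal-enriched genes it was 1.21, with 4 over 3-fold. The following genes were chosen after their values were seen. Nos1, which encodes neuronal nitric oxide synthase, was at 182, 82.5 and 16.1 CPM in SST and 27.9, 48.8 and 46.6 CPM in dorsal CA1, so the groups overlapped (log2 fold change 1.22, adjusted p 0.219). Without library 3 it was called higher in SST (Nos1 log2 fold change 1.7, adjusted p 0.00376), and without library 1 the Nos1 log2 fold change was 0.3 (adjusted p 0.765). Chodl, a marker with Npy and Nos1 of long-range SST cells, was at 10.7, 9.87 and 0 CPM, and Tacr1, the substance P receptor of the same cells, at 25.7, 12.6 and 2.85 CPM. Sstr1, a somatostatin receptor, ran the other way at 12.7, 9.54 and 56.2 CPM, as did Chrna2, the nicotinic subunit that marks oriens cells projecting to stratum lacunosum-moleculare, at 9.55, 7.89 and 43.2 CPM. Library 3 was therefore low in the first group of genes and high in the second, while Sst and Gad1 were highest in it. Chrna2 was 2.63 on the log2 scale above dorsal CA1 (adjusted p 0.0213) and 1.4 without SST library 3 (adjusted p 0.0492). The call for Chrna2 was lost without any single dorsal library (adjusted p 0.0746, 0.0749 and 0.0918), and it was 10.13 on the log2 scale above PV cells (adjusted p 0.0019).

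PV interneuron markers were present at lower levels in SST than in PV cells but above dorsal CA1. All 7 tested members of 8 were higher in SST than in dorsal CA1 (median log2 fold change 4.03). Of the 7, 2 had no dorsal read and could be called only toward SST. In the fit of SST against PV, 7 of 8 were higher in PV than in SST cells. Erbb4, the neuregulin receptor, was at 67.8, 104 and 104 CPM in SST, 0 to 0.227 CPM in dorsal CA1 (1310-fold, adjusted p 3.76e-05) and 1210 to 1970 CPM in PV cells (log2 fold change -4.05, adjusted p 5.49e-05). Pvalb itself was at 18.9, 54.5 and 1.57 CPM in SST, 0 in dorsal and 304 to 368 CPM in PV libraries. Its call against dorsal CA1 (at least 210-fold, adjusted p 0.00478) was lost at an adjusted p of 0.0557 when genes with at least 1 read were tested. Among 15 markers of other interneuron classes, 5 of 11 tested were higher in SST and 3 higher in dorsal CA1. Ndnf, a neurotrophic factor that marks neurogliaform cells in cortex, was at 82.6, 72.8 and 125 CPM in SST and at most 0.295 CPM in dorsal and PV libraries (1180-fold over dorsal CA1, adjusted p 3.29e-05). Cnr1, the CB1 cannabinoid receptor, was at 314, 308 and 515 CPM in SST, 126 to 152 CPM in dorsal CA1 (2.73-fold, adjusted p 0.00217) and 9.94 to 32.5 CPM in PV cells. Of 14 markers of CA2, CA3 and dentate gyrus, 6 of 9 tested were higher in SST and 1, Rgs14, in dorsal CA1.

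**Figure D3:**
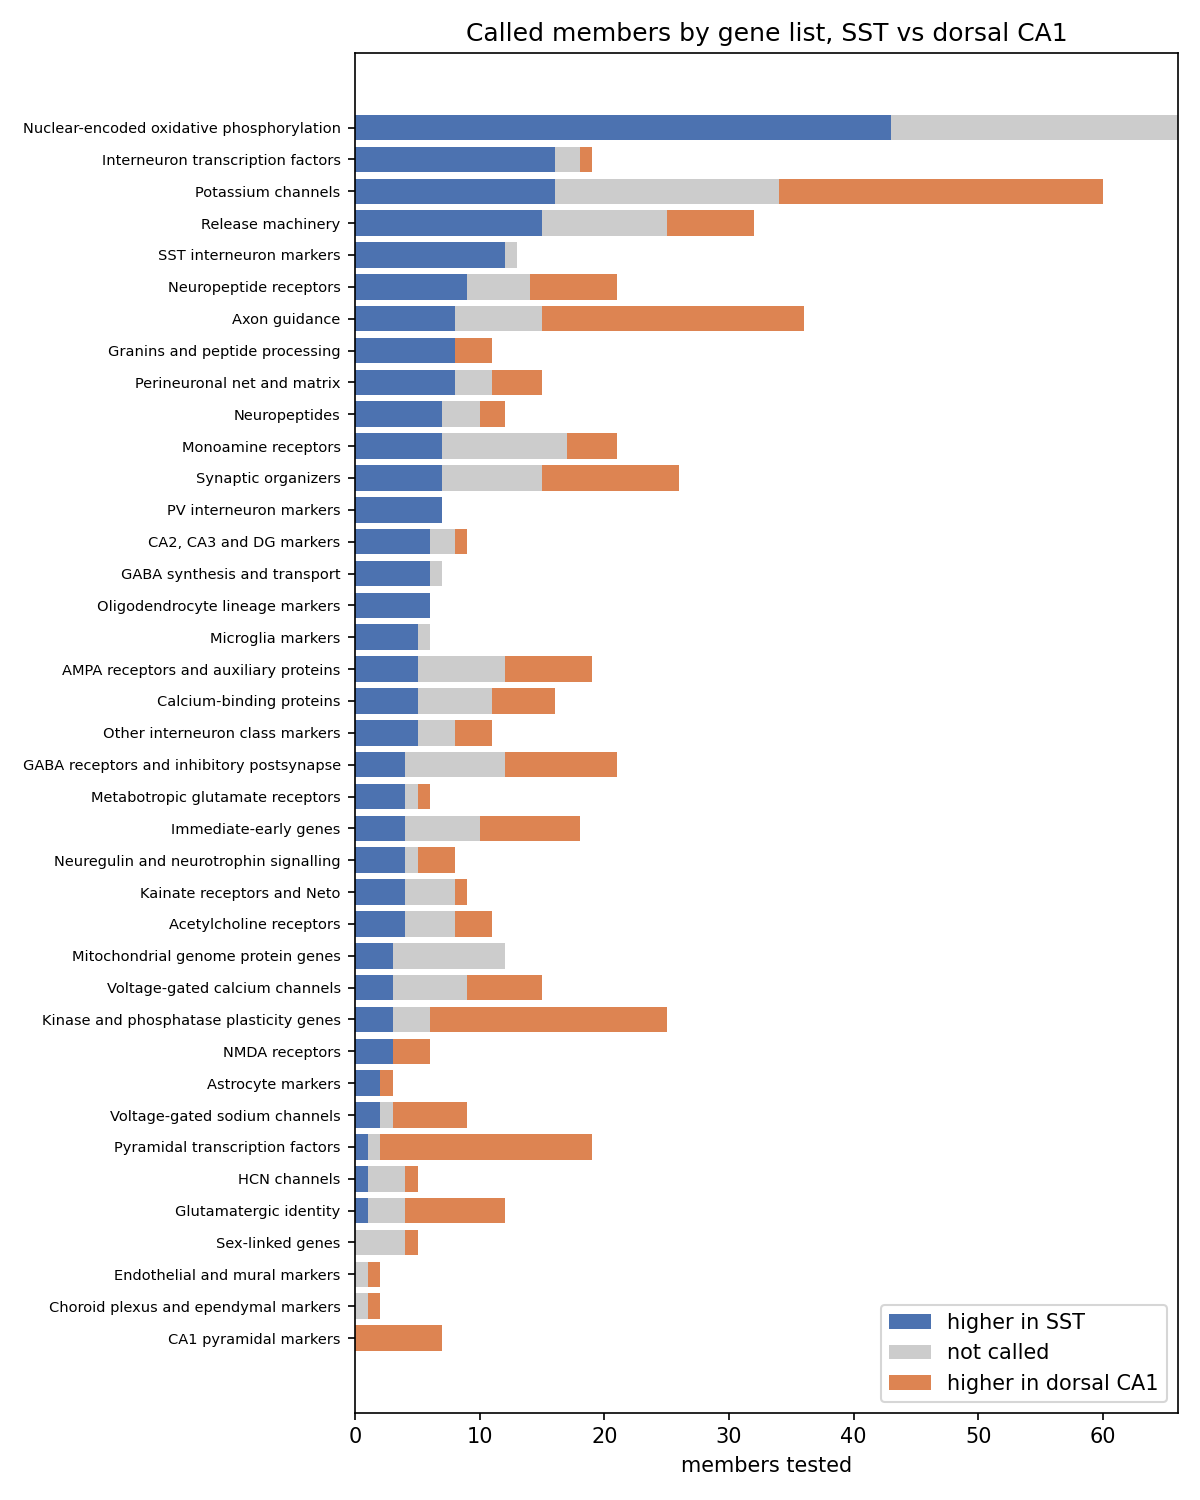
Bars count the tested members of 39 gene lists, split into those called higher in SST (blue), not called (grey) and called higher in dorsal CA1 (orange). Of 66 oxidative phosphorylation genes 43 are blue, and of 19 tested pyramidal factors 17 are orange.

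Voltage-gated potassium channels set firing patterns. The list of 64 potassium channel genes also held inward rectifier, two-pore and calcium-activated channels and auxiliary proteins. It was mixed: 60 were tested, 16 were higher in SST and 26 higher in dorsal CA1 (median log2 fold change -0.79). The A-type Kv4 subunits exchanged places. Kcnd3 was at 324, 343 and 642 CPM in SST against 9.57 to 14.8 CPM in dorsal CA1 (35.5-fold, adjusted p 2.2e-05), and Kcnd2 was at 462 to 473 CPM in dorsal CA1 against 43.9 to 78.4 CPM in SST (8.19-fold, adjusted p 6.59e-05). Their auxiliary proteins split likewise, with Dpp10 at 360, 366 and 408 CPM in SST against 0.227 to 0.977 CPM (695-fold, adjusted p 4.92e-06) and Kcnip2 26.7-fold higher in dorsal CA1 (adjusted p 3.85e-05). Of the Kv3 subunits, which allow fast firing, Kcnc1 was 16.3-fold, Kcnc2 4.05-fold and Kcnc4 202-fold higher in SST. Kcnc4 was at 38.7, 38.8 and 26.7 CPM in SST and 0.553 to 1.25 CPM in PV cells (log2 fold change 5.28, adjusted p 0.000563), whereas Kcnc1 and Kcnc2 were higher in PV cells. Kcna3 had 1 dorsal read, a ratio of 2850 (511 to 113000), and Kcnmb2, an inactivating subunit of BK channels, was 540-fold higher in SST. On the dorsal side were the GIRK subunit Kcnj6 (16.9-fold, adjusted p 2.53e-05) and Kcnab2 (5.95-fold, adjusted p 8.14e-05).

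Sodium channel genes were more often higher in dorsal CA1, 6 of 9 against 2. Scn1a, the NaV1.1 channel of interneurons, was at 387, 485 and 593 CPM in SST and 135 to 164 CPM in dorsal CA1 (3.25-fold, adjusted p 0.000438), and PV cells were higher again at 815 to 966 CPM (log2 fold change -0.87, adjusted p 0.0434). Scn8a was 2.69-fold and the auxiliary Scn3b 5.41-fold higher in dorsal CA1. Scn4b, the subunit linked to resurgent current, was at 45.8, 45.9 and 53.2 CPM in dorsal CA1, 0.933, 0.0459 and 0.0492 CPM in SST (141-fold, adjusted p 0.000544) and 21.3 to 49 CPM in PV cells. With intermediate and ventral CA1 added to the dorsal group the call for Scn4b was lost (log2 fold change -1.19, adjusted p 0.956). Without SST library 1, or without any 1 dorsal library, 3 rather than 6 sodium channel genes were called higher in dorsal CA1. Among 15 calcium channel genes, 3 were higher in SST and 6 in dorsal CA1, where 16.4% and 13.9% of all tested genes were. Of the alpha2delta subunits, which traffic the channels, Cacna2d2 was at 117, 161 and 182 CPM in SST and 0.0909 to 0.135 CPM in dorsal CA1 (1290-fold, adjusted p 1.59e-06), and Cacna2d1 was at 484 to 601 CPM in dorsal CA1 and 6.97 to 31.5 CPM in SST (33.1-fold, adjusted p 0.000286). Cacna1e, the R-type channel, was 24.5-fold and the T-type Cacna1h 37.6-fold higher in dorsal CA1. Of 5 genes of HCN channels and their auxiliary protein, Hcn3 was higher in SST (5.41-fold) and Pex5l in dorsal CA1 (9.57-fold). Without SST library 3 the HCN list counted 3 higher in SST.

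Ionotropic glutamate receptors differed by subunit. Gria2, the AMPA subunit that limits calcium entry, was at 386, 379 and 535 CPM in SST and 2780 to 2880 CPM in dorsal CA1 (6.33-fold, adjusted p 2.49e-05), and Gria1 was 2.81-fold higher in dorsal CA1. Gria4 was at 264, 301 and 543 CPM in SST against 12.9 to 14.6 CPM (27.8-fold, adjusted p 2.01e-05), and Gria3 was not called (log2 fold change -0.24, adjusted p 0.491). Without SST library 3, Gria3 was called higher in dorsal CA1 (log2 fold change -0.58, adjusted p 0.000382). Of 19 AMPA receptor and auxiliary genes 5 were higher in SST and 7 in dorsal CA1 (median -0.05). Auxiliary proteins split too, with Cacng2 (3.84-fold), Cacng7 (6.29-fold) and Cacng4 (3 dorsal reads, ratio 531, 181 to 2580) higher in SST and Cacng8 (8.35-fold), Cnih2 (3.16-fold) and Shisa7 (4-fold) higher in dorsal CA1. Of 6 tested NMDA receptor genes, 3 were higher in each group. Grin3a, whose subunit lowers calcium permeability, was at 384, 361 and 514 CPM in SST, 14.4 to 26.4 CPM in dorsal CA1 (19.9-fold, adjusted p 2.09e-05) and 34.5 to 49.4 CPM in PV cells (log2 fold change 3.39, adjusted p 0.000104). Grin2d was 5.45-fold higher in SST, and Grin2a and Grin2b were 6.5-fold and 7.01-fold higher in dorsal CA1.

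Kainate receptor genes leaned to SST, with 4 of 9 higher there and 1 in dorsal CA1. Grik1 was at 71.7, 43.1 and 112 CPM in SST with no dorsal read (at least 637-fold, adjusted p 5.91e-05), Grik3 at 226, 302 and 310 CPM against 0.135 to 0.182 CPM (1770-fold, adjusted p 1.3e-06), and their auxiliary protein Neto1 at 740, 768 and 1290 CPM against 23.7 to 36.3 CPM (31-fold, adjusted p 1.35e-05). All 3 were also higher in SST than in PV cells. The counts became 4 and 0 without SST library 1 or 2, 4 and 3 without library 3, and 3 and 0 without any 1 dorsal library. Of 6 tested metabotropic receptors, 4 were higher in SST and 1, Grm5 (2.17-fold), in dorsal CA1. Grm8, a presynaptic receptor, was at 6.3 to 8.53 CPM against 0.0793 to 0.337 CPM (33.6-fold, adjusted p 0.00216).

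Subunit shares were computed from FPKM values, which divide by gene length, as a description with no test, since 3 libraries against 3 cannot give an exact permutation p under 0.10, which is above the threshold. Gria2 made up 14% to 15.8% of summed AMPA subunit FPKM in SST and 40.9% to 43.1% in dorsal CA1, while Gria4 made up 14.9% to 21.2% and 0.283% to 0.307%. Summed AMPA FPKM was 483 ± 129 in SST and 1070 ± 32.8 in dorsal CA1 (SD, n = 3). Grin3a made up 23.3% to 27.3% of NMDA subunit FPKM in SST, 0.259% to 0.475% in dorsal CA1 and 2.92% to 4.02% in PV cells. Kcnd3 supplied 79% to 80.2% of Kv4 FPKM in SST and 1.45% to 2.18% in dorsal CA1, at sums that were close, 95.2 ± 34 and 103 ± 1.7 FPKM. The sums of alpha2delta FPKM were also close, 148 ± 7.33 in SST and 123 ± 14.7 in dorsal CA1, yet Cacna2d1 was 0.785% to 3.56% of that sum in SST and 67.7% to 73.7% in dorsal CA1. For the GABA-A receptor alpha subunits, Gabra5 made up 2.4% to 3.94% in SST and 49.4% to 55.7% in dorsal CA1. In the Kv4 and alpha2delta families the mean sums of the groups were close, although the Kv4 sum varied widely among SST libraries (SD 34). The leading member differed, with Kcnd2 at 90.2% to 94.2% in dorsal CA1 and Cacna2d3 at 62.6% to 73.3% in SST.

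**Figure D4:**
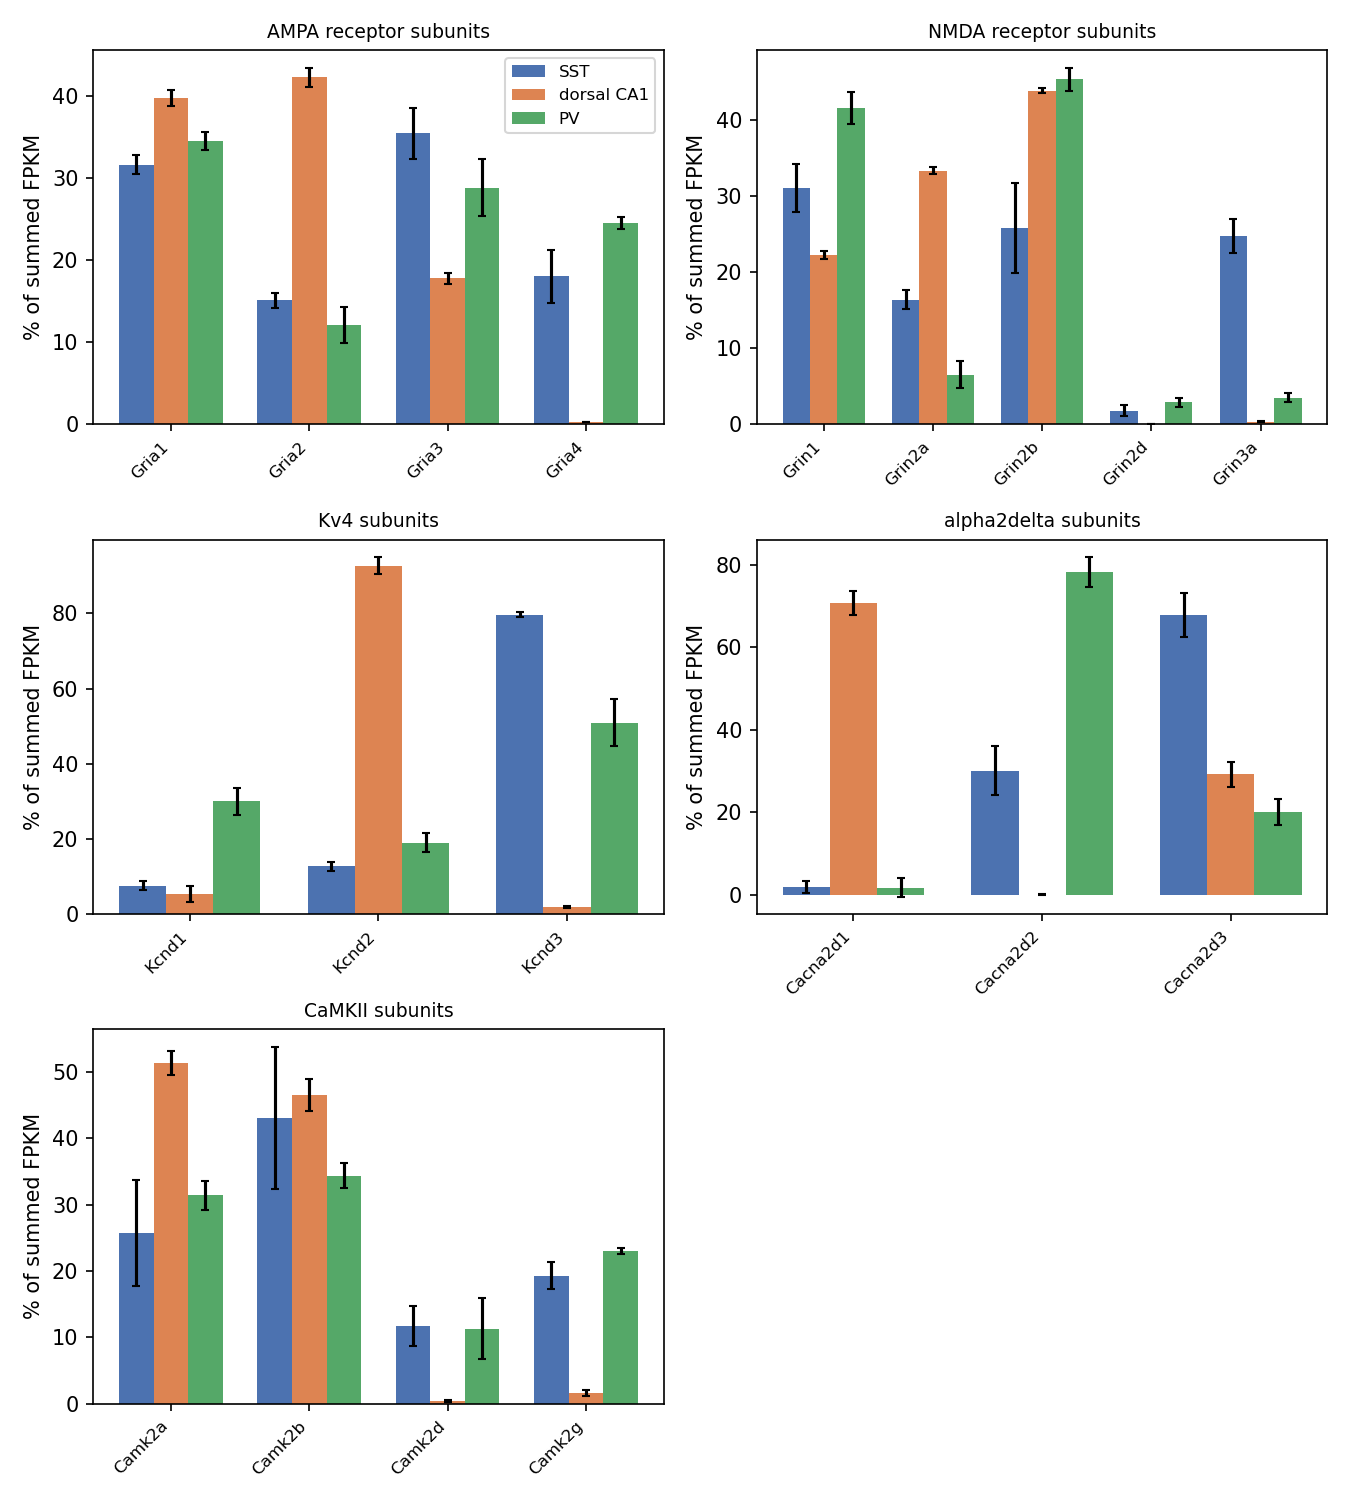
Bars are the mean share of summed FPKM within each family, in percent, with SD error bars (n = 3 libraries), for SST, dorsal CA1 and PV cells. Gria4, Grin3a, Kcnd3 and Cacna2d2 hold a larger share in SST than in dorsal CA1, and Kcnd2 and Cacna2d1 show the reverse.

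GABA receptor genes and their postsynaptic partners were more often higher in dorsal CA1, 9 of 21 tested against 4 in SST (median -0.48), and 14 against 4 without SST library 3. Over all tested genes 13.9% were higher in dorsal CA1 and 16.4% in SST. Gabra5, the alpha5 subunit of extrasynaptic receptors, was at 649, 663 and 597 CPM in dorsal CA1 and 15.1, 12.3 and 14.2 CPM in SST (44.7-fold, adjusted p 1.59e-06). Gabra2 (7.47-fold) and Gabra4 (6.03-fold) were higher in dorsal CA1 too. Gabra3 was 4.38-fold and the chloride importer Slc12a2 4.32-fold higher in SST. Kctd8, an auxiliary subunit of GABA-B receptors, was at 52.4, 52.4 and 61.2 CPM against 0.273 to 0.303 CPM (195-fold, adjusted p 3.52e-06).

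Receptors for modulators also exchanged members. Among 11 tested acetylcholine receptor genes 4 were higher in SST and 3 in dorsal CA1, counts that were 1 and 2 without dorsal library 2 and 2 and 2 without dorsal library 3. The muscarinic receptor Chrm1 was at 374 to 418 CPM in dorsal CA1 against 13.9 to 29.7 CPM (18.3-fold, adjusted p 2.67e-05), and Chrm2 was at 25.1, 24.5 and 6.3 CPM in SST with no dorsal read (at least 157-fold, adjusted p 0.000608). Of 28 monoamine receptors 21 were tested, with 7 higher in SST and 4 in dorsal CA1 (median -0.63), against 10 and 8 without SST library 3 and 7 and 2 without dorsal library 1 or 3. The dopamine receptor Drd2 was at 33.7, 36 and 32.8 CPM in SST against 0.0674 to 0.0909 CPM (418-fold, adjusted p 5.98e-06). The adrenergic receptors Adra1a (237-fold, adjusted p 1.28e-05) and Adra1b (at least 121-fold, adjusted p 0.000325) and the histamine receptor Hrh3 (24.2-fold) were higher in SST, and the serotonin receptor Htr1a, at 141 to 191 CPM in dorsal CA1 and 23.5 to 41.2 CPM in SST, was 4.95-fold higher in dorsal CA1 (adjusted p 0.000327).

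Of 27 neuropeptide receptors 21 were tested, with 9 higher in SST and 7 in dorsal CA1 (median 0.82). The counts were 8 and 4 without dorsal library 1 and 9 and 4 without dorsal library 2. All 3 classical opioid receptors were higher in SST: Oprm1 (mu) was at 38.5, 45.7 and 27.3 CPM with 1 dorsal read, a ratio of 2870 (514 to 113000), Oprk1 (kappa) at 24.2, 25.4 and 59.5 CPM with 1 dorsal read, a ratio of 2810 (504 to 111000), and Oprd1 (delta) at 44.4, 43.4 and 40.3 CPM (177-fold, adjusted p 0.000188). PV cells were higher than SST cells for Oprd1 (log2 fold change -1.75, adjusted p 0.00562). Somatostatin receptors divided between the cells, with Sstr1 78.3-fold higher in SST (adjusted p 0.00358) and Sstr4 at 119 to 145 CPM in dorsal CA1 against 3.9 to 14.3 CPM (15-fold, adjusted p 0.000325). The NPY receptors Npy2r (37.8-fold, adjusted p 0.000545) and Npy1r (8.36-fold, adjusted p 0.0058) were higher in dorsal CA1. Adcyap1r1, the PACAP receptor, was at 267, 295 and 355 CPM in SST against 17.3 to 21.9 CPM (16.4-fold, adjusted p 6.59e-06). The ligand genes Sst and Npy and the receptors Sstr4 and Npy2r therefore lay on opposite sides of the comparison.

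Granins and peptide-processing enzymes, the contents of dense-core vesicles, were all tested: 8 of 11 were higher in SST and 3 in dorsal CA1 (median 1.62), or 8 and 1 without dorsal library 2. Vgf was at 425, 476 and 265 CPM in SST against 43.8 to 53.7 CPM (8.01-fold, adjusted p 5.58e-05), Scg2 at 820, 932 and 947 CPM against 223 to 240 CPM (3.95-fold, adjusted p 4.07e-05), and Pcsk1n, an inhibitor of the prohormone convertase PC1, was 12.6-fold higher. Pcsk2, the gene of the convertase PC2, was higher in dorsal CA1, at 300 to 384 CPM against 32 to 45.6 CPM (8.54-fold, adjusted p 2.43e-05).

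Of 32 tested genes of vesicle release (34 listed), 15 were higher in SST and 7 in dorsal CA1 (median 0.54), and 10 and 4 without dorsal library 1. Rab3b was at 559, 643 and 451 CPM in SST against 0.909 to 8.85 CPM (134-fold, adjusted p 0.000223), Rims3 at 88.9, 91.1 and 125 CPM against 0 to 0.303 CPM (879-fold, adjusted p 5.17e-05) and Rph3a, a Rab3 effector, at 184, 207 and 190 CPM against 1.73 to 3.69 CPM (80.3-fold, adjusted p 7.31e-06). Cplx1, which clamps and triggers fusion, was 10.1-fold higher in SST than in dorsal CA1 (adjusted p 1.04e-05) and lower than in PV cells (log2 fold change -1.09, adjusted p 0.00972). Syt16 (3.73-fold), Unc13a (3.24-fold) and Syt5 (2.74-fold) were higher in dorsal CA1.

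Calcium-binding proteins split evenly, 5 of 16 in each direction (median 0.46). Hpca, the sensor hippocalcin, was at 2410, 2670 and 2550 CPM in dorsal CA1 against 51.3 to 65 CPM in SST (42-fold, adjusted p 1.59e-06), and the calmodulin genes Calm2 (3.09-fold) and Calm3 (2.18-fold) were also higher there. Ncald was at 140, 141 and 161 CPM in SST against 4.68 to 9 CPM (23-fold, adjusted p 2.03e-05), and Necab1 was 9.49-fold higher. Kinases, phosphatases and scaffolds of the excitatory postsynapse leaned to dorsal CA1, with 19 of 25 higher there and 3 higher in SST (median -2.76). Camk2a was at 2470, 2530 and 2360 CPM in dorsal CA1 against 107, 160 and 299 CPM (12.6-fold, adjusted p 0.000147) and Ppp3ca, the catalytic subunit of calcineurin, at 4200 to 4670 CPM against 273 to 451 CPM (12.4-fold, adjusted p 1.35e-05). Camk2d was 5.08-fold higher in SST, where it held 8.56% to 14.5% of CaMKII FPKM against 0.275% to 0.594% in dorsal CA1. The summed CaMKII FPKM was 189 ± 50.9 in SST and 1110 ± 27.1 in dorsal CA1.

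Genes of the matrix and of synaptic and axonal contact followed. Of 18 perineuronal net and matrix genes 15 were tested, with 8 higher in SST and 4 in dorsal CA1 (median 1.66). Spock1 was at 294, 303 and 445 CPM in SST against 5.79 to 6.37 CPM (59.3-fold, adjusted p 2.61e-06), Col19a1 was 68.8-fold higher, and Ncan, neurocan, was at 544 to 579 CPM in dorsal CA1 against 45.7 to 78.6 CPM (8.53-fold, adjusted p 3.22e-05). Acan, the aggrecan core of perineuronal nets, was below the filter in this comparison at 0.0492 to 1.42 CPM in SST and 0 in dorsal CA1, and was higher in PV cells at 10.9 to 30 CPM (log2 fold change -4.6, adjusted p 0.0337). Of 31 synaptic organizers 26 were tested, with 7 higher in SST and 11 in dorsal CA1 (median -0.62). Cbln4, a cerebellin that SST cells use at inhibitory synapses, was at 47.3, 59.5 and 72.3 CPM with no dorsal read (at least 502-fold, adjusted p 2.17e-05), and Lrrtm3 was 105-fold higher in SST. C1ql3 (38.2-fold, adjusted p 0.000228), Clstn2 (10.4-fold, adjusted p 3.86e-05) and Nlgn1 (8.28-fold, adjusted p 5.32e-05) were higher in dorsal CA1. Of 36 tested axon guidance genes 21 were higher in dorsal CA1 and 8 in SST (median -1.52). Epha4 was at 985 to 1190 CPM in dorsal CA1 against 54.2 to 82.7 CPM (16.3-fold, adjusted p 7.66e-06), Slit1 (15.1-fold) and Slit3 (30.3-fold) and the plexin Plxna4 (6.55-fold) were on the same side. The netrin receptor Unc5d was at 142, 164 and 108 CPM in SST against 0.273 to 0.303 CPM (487-fold, adjusted p 1.59e-06), with the secreted Sema3a 9.2-fold higher in SST (adjusted p 0.000243). Of 8 tested neuregulin and neurotrophin genes, 4 were higher in SST and 3 in dorsal CA1, among them Nrg1 (79.9-fold over dorsal CA1, adjusted p 6.3e-05, and 3.78 on the log2 scale over PV cells) and Ntrk3 (7.37-fold higher in dorsal CA1, adjusted p 7.28e-05).

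Immediate-early genes, which follow recent activity, were divided, with 4 of 18 higher in SST and 8 in dorsal CA1 (median -1.01). Fos was at 45, 13.7 and 38.7 CPM in SST against 2.34 to 3.5 CPM in dorsal CA1 (11.1-fold, adjusted p 0.00124). Npas4 was at 34.9, 12.9 and 19.5 CPM in dorsal CA1 against 0.197 to 0.769 CPM (47.5-fold, adjusted p 0.000492), Nr4a1 was 8.3-fold, Nr4a3 7.89-fold and Arc 5.53-fold higher in dorsal CA1. No groups of Fos, Npas4 or Nr4a1 values overlapped, which also held for 48% of all tested genes.

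Nuclear genes of oxidative phosphorylation were higher in SST in 43 of 66 cases and in none higher in dorsal CA1 (median log2 fold change 0.95 against 0.06 over all tested genes). The differences were small beside those of the identity genes: Cox6b1, of complex IV, was at 178, 181 and 179 CPM in SST against 46.8 to 59.3 CPM (3.45-fold, adjusted p 0.000158), Ndufc2, of complex I, was 3-fold higher (adjusted p 0.000979), Atp5g3 of the ATP synthase 2.66-fold (adjusted p 0.000726) and Ndufb5 2.63-fold (adjusted p 0.000759). The count depended on single libraries, at 28 and 27 without SST libraries 1 and 2, 54 with 1 higher in dorsal CA1 without SST library 3, and 18, 24 and 19 without dorsal libraries 1, 2 and 3. Between SST and PV cells 0 of 66 were called, where 3.51% of all tested genes were. A count this near the share of all genes does not show that the 2 groups were alike. The 66 genes summed to 8330 to 12600 CPM in SST and 14100 to 15700 CPM in PV libraries, and the difference of the sums was not tested. Of the 12 tested protein genes of the mitochondrial genome 3 were higher in SST, where 16.4% of all tested genes were. mt-Co2 was at 932, 858 and 820 CPM against 384 to 413 CPM (2.26-fold, adjusted p 0.000556), and mt-Co1 was at 5170, 4500 and 14600 CPM against 4490 to 4710 CPM and was not called (log2 fold change 0.85, adjusted p 0.156). Library 3 was high for mt-Co1, and without it 8 mitochondrial genes were higher in SST and 1 in dorsal CA1; without SST library 2, 5 were higher in SST. The 5 sex-linked genes held 1 call, lower in SST (Eif2s3y), and Xist was at 0, 0 and 3.84 CPM in SST against 10 to 10.5 CPM in dorsal CA1 (adjusted p 0.2); without SST library 3 the counts were 1 higher in SST and 4 in dorsal CA1, Xist among the latter.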

How the data were processed

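Reads per gene were deposited as whole-number counts, and the authors also deposited FPKM values (fragments scaled to gene length and library depth) for the same libraries. Per the submitters' processing notes, HTSeq and DESeq2 were used, as were Cuffdiff 2.1.1 and TopHat2 2.0.6. Those notes list mm9 and NCBIM37 as builds, and tie no tool or build to a file. The sources used here do not give the strand setting of the counting, so reads of overlapping and antisense genes cannot be told apart. Of 37620 gene identifiers 32897 had a name, and 92 spike-in rows and the summary rows stayed out of library sizes and tests. All per-sample columns were mapped to a group (0 were left over). Count columns name the population and a number, and were assigned by population.

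The 3 SST and 3 dorsal CA1 libraries were fitted with edgeR 4.0.16 in R 4.3.3 (TMM scaling, filterByExpr, robust quasi-likelihood test), with Benjamini-Hochberg adjustment over all tested genes and a threshold of 0.05. A separate fit compared SST with PV libraries. CPM levels used TMM factors over all 48 libraries. Where a group had no read, a lower bound of the fold was taken by setting each of its libraries to 3 reads. With 1 to 3 reads in all, the ratio has a 95% exact binomial interval. Floors and intervals cover counting error only. Alternatives used DESeq2 1.42.0 and limma 3.58.1. Tables and figures were made with Python 3.11.15, pandas 2.3.3, numpy 2.4.6, scipy 1.17.1 and matplotlib 3.10.9. On simulated counts for 13038 genes made from the SST and dorsal libraries, the test recovered 12 of 100 genes changed 2-fold and 69 of 100 changed 4-fold, with 4 false calls. The simulation gave both groups the same spread for each gene, whereas the real SST libraries varied more than the dorsal ones. Its false calls therefore do not show how the test behaves under unequal spread.

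The comparison and the gene lists were chosen with earlier results of these data known. Named genes were the 15 with the largest change in each direction among called genes with a mean of at least 10 CPM and groups that did not overlap, leaving out predicted, ribosomal protein, small RNA, mitochondrial, sex-linked, olfactory, vomeronasal, immunoglobulin and T cell receptor genes. Any member of a list of up to 21 genes could be named, and of longer lists the 4 called genes with the smallest p in each direction. The subunit families, interferon-stimulated genes, motifs and shown promoters were chosen after values were seen. Some genes of the lists are counted but their values are not reported here.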

Additional observations from a re-analysis of the deposited data

How the results depend on the processing

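Of 588 tested genes that could be named under the rule or stand in a list, 426 were called. Of the called genes, 312 kept their call under every setting in which they were tested. In 12 of the 588, the log2 fold change took the other sign, with a call in the main fit or in the alternative. Bcan, Chrm3, Ntng1 and Syt7 of the 12 were called in the main fit, and the others were not. Against dorsal, intermediate and ventral CA1 together, the log2 fold change became 0.72 for Bcan, -0.63 for Cacna1c, 0.51 for Cacng3, 0.21 for Chrm3, -1.69 for Cnih3, -1.49 for Fosl2, -1.02 for Ntng1, -2.0 for Syt17 and 0.04 for Syt7. With 1 library left out in turn, Gabbr2 ranged from -0.39 (without SST library 3) to 0.25, Htr2c from -4.51 (without SST library 3) to 1.22 and Shisa6 from -0.53 (without SST library 3) to 0.27. The cause was not tested. Leaving out 1 library gave 2580 (dorsal library 1) to 6221 (SST library 3) called genes, 1386 to 3191 higher in SST, 1194 to 3030 higher in dorsal CA1, 1923 to 3362 of at least 3-fold and 230 to 683 between SST and PV cells. DESeq2 called 5631 genes, and 1487 between SST and PV. Requiring a mean of at least 10 CPM left 1550 genes of at least 3-fold, fewer genes being tested. Fitting all 48 libraries gave 4024 calls, 2001 higher in SST and 2023 higher in dorsal CA1. Same-numbered libraries correlated at -0.02664, 0.1236 and 0.04872 in their deviations over 8250 genes, and differently numbered ones at -0.1083 to 0.05164. With 3 libraries per group these values cannot decide whether the numbers pair the samples. With a replicate block 3646 genes were called, 1901 higher in SST and 1745 higher in dorsal CA1, 2314 of at least 3-fold, and 492 between SST and PV. Depth limited low genes: a gene without reads in a group could lie anywhere under the floor.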

Other observations

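Genes known to be induced by interferon were looked at after Oasl2 and Ifit3b appeared among the largest differences, so the list was written with those values seen. Of 35 genes 29 were tested, 25 were higher in SST than in dorsal CA1 cells, where 16.4% of all tested genes were, and none was higher in dorsal CA1. Oasl2 and Ifit3b, which prompted the list, are among the 25. Members without a dorsal read, such as Rsad2, Mx1, Mx2, Ifi44, Parp14 and Gbp3, passed the read filter through the SST libraries alone. Those members could be called only in that direction, so the count describes the list and is no test of it. Between SST and PV cells 0 of 29 were called, where 3.51% of all tested genes were. Ifit1, an antiviral RNA-binding protein, was at 204, 438 and 354 CPM in SST, 0 to 0.238 CPM in dorsal CA1 (3530-fold, adjusted p 9.44e-06) and 67.2 to 266 CPM in PV cells. SST library 2 was the highest SST library for Ifit1. Stat2 was at 31, 92 and 32.8 CPM against 21.1 to 23.5 CPM and was not called (adjusted p 0.0591). The 29 genes summed to 1180 to 2890 CPM in SST, 941 to 2140 CPM in PV and 81.4 to 93.3 CPM in dorsal CA1 libraries. Outside the interneurons the highest single library held 491 CPM, among amygdala-projecting CA1 cells, where the median was 110 CPM. Microglial markers, which were also higher in SST libraries, summed to 55.6, 42.2 and 137 CPM there, and their part in this result was not tested.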
